A study of Mus musculus with 20 samples.

Results

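The genes described here are 10 genes of the VEGF and angiopoietin systems and of the endothelial surface (Vegfa, Vegfc, Kdr, Flt1, Flt4, Tek, Angpt1, Angpt2, Pecam1 and Plvap). They were taken by name from the table of raw counts per gene, which held all 10 among its 24411 genes, and all 10 passed the filter on low counts in every comparison. The counts came from bulk RNA-seq of whole kidneys from 20 mice at the age labelled P125 (postnatal day), in 4 groups of 5 by sex and genotype. Mutants carried floxed Pkd2 on both alleles (Pkd2 fl/fl) together with Pax8 rtTA and TetO Cre, so that doxycycline turns on Cre along the whole tubule epithelium and deletes part of Pkd2. Controls were littermates that carried the same floxed Pkd2 alleles but lacked either Pax8 rtTA or TetO Cre. Mice of all groups received doxycycline at 50 mg/kg on postnatal days 27 to 29 and came from 3 litter groups, named A, B and C here. The promoter that drives Cre is one of tubule epithelium and not of endothelial cells, so genes that tubule cells also express, such as Vegfa, are read in part from the targeted cells. Mice are named by sex, genotype and a number in the order of the deposit (MC1 is a male control, FM4 a female mutant).

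VEGF ligands bind receptor tyrosine kinases on endothelial cells and promote their survival, growth and permeability. In the kidney, podocytes and tubule cells make Vegfa, while its receptors are on the capillaries next to them. The angiopoietins act on the receptor Tek, with Angpt1 as the stabilizing agonist made by perivascular and other stromal cells, and Angpt2 as a context-dependent antagonist. Autosomal dominant polycystic kidney disease is caused by mutations of PKD1 or PKD2, and the vessels around cysts are known to be remodelled.

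Libraries held 11307741 to 19324073 counts, a depth at which the member with the fewest counts, Vegfc, had 38 to 111 counts per library. Pkd2 averaged 291 ± 31.1 CPM (counts scaled to library size by the TMM method and expressed per 1000000 counts; SD, n = 5 here and below) in male controls and 119 ± 9.86 in male mutants, and 257 ± 49.1 against 145 ± 33.6 in females, so no label went against the targeted gene. Counts over the whole of Pkd2 include exons outside the deleted part and cells that were not targeted. Kidney weight as a percent of body weight (KBW) was 0.692 ± 0.117 in male controls, 1.68 ± 0.338 in male mutants, 0.615 ± 0.0448 in female controls and 1.18 ± 0.261 in female mutants. The library of FM4 stood apart, with 14850 genes detected and 76 genes at a single count against 16776 to 17724 and 708 to 859 in the other 19 libraries, and the values that changed most without it are given beside the results. Nothing in the labels says how the RNA was divided among library preparations.

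Divided by the length of the merged exons, Vegfa and Plvap were the most abundant members in every group. In male controls Vegfa stood at 65.5 ± 4.38 CPM per kilobase, Plvap at 49.3 ± 3.27, Pecam1 at 9.23 ± 0.916 and Tek at 8.96 ± 1.11. Kdr followed at 6.81 ± 0.963, Angpt2 at 5.80 ± 1.01, Angpt1 at 4.75 ± 0.694, Flt1 at 3.04 ± 0.338, Vegfc at 1.69 ± 0.397 and Flt4 at 1.14 ± 0.0878. Neighbours in this order from Pecam1 down to Angpt1 overlapped between mice, as did Vegfc and Flt4. In female controls the order began instead with Plvap at 76.9 ± 9.26 and Vegfa at 63.9 ± 5.69 CPM per kilobase, 2 ranges that overlapped, and in male mutants with Plvap at 65.3 ± 6.27 and Vegfa at 41.0 ± 8.88, which did not overlap.

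**Figure D1:**
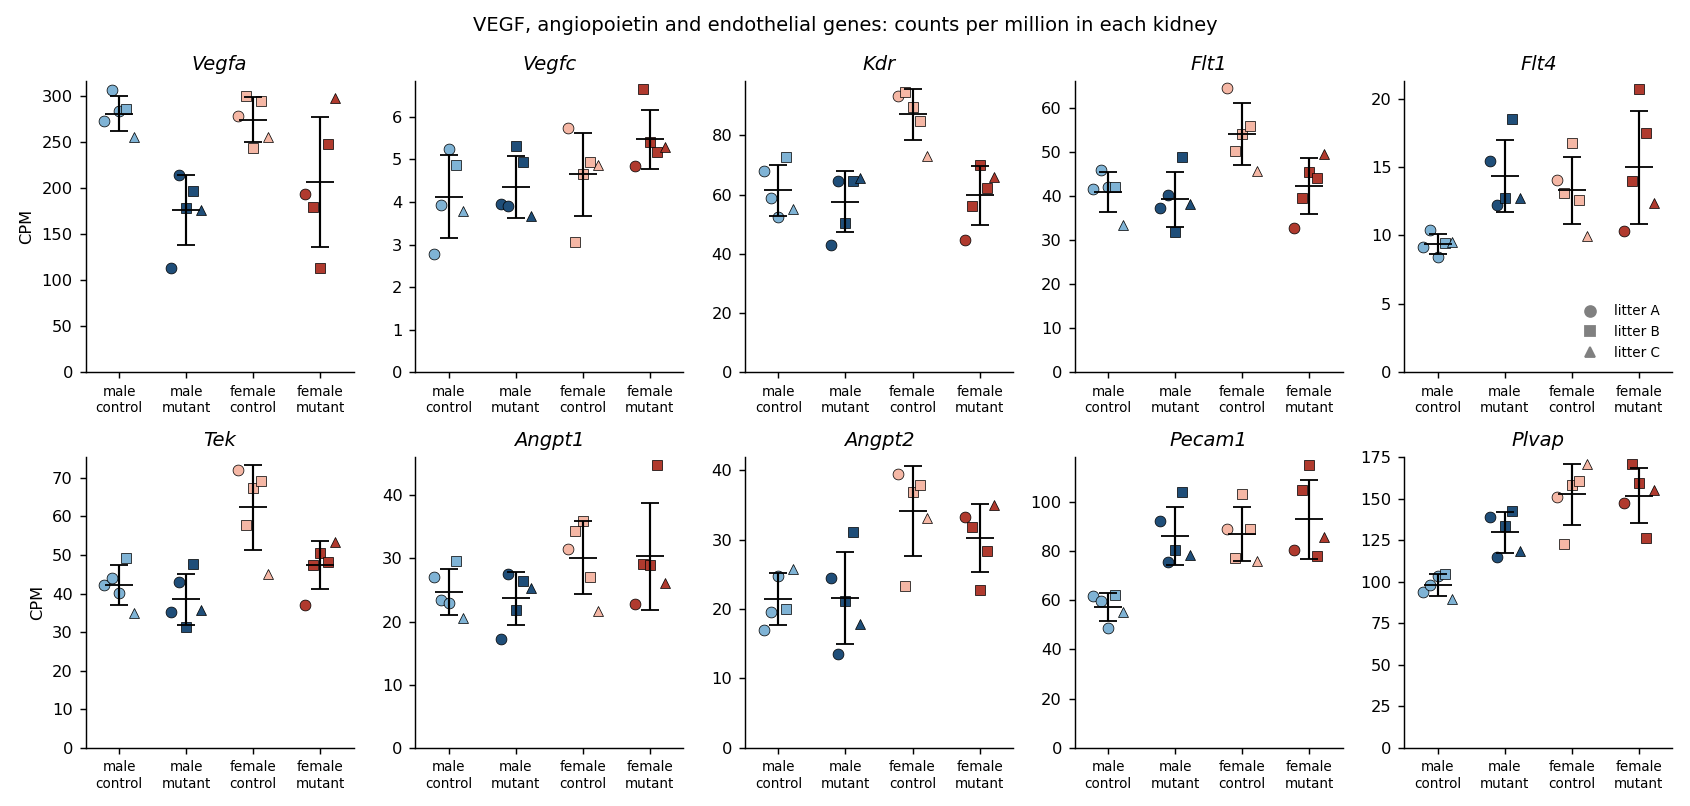
CPM (linear axis from 0) of each of the 10 genes in each kidney, by sex and genotype. Points are single mice, shapes give the litter, and bars are the group mean ± SD (n = 5). Vegfa was lower in every male mutant than in every male control, while Flt4, Pecam1 and Plvap were higher, and Kdr was lower in every female mutant than in every female control.

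The upstream sequences of 3 receptor genes whose levels correlated with each other across mice (Kdr, Flt1 and Tek, described below) and of Vegfa, whose correlation with each of them was lower, are shown for context. RefSeq held promoters for 6 of the 10 members, in 7 entries, on build GRCm38.p6. Each sequence is the 250 bases before the annotated start of the gene, 5′ to 3′ on the gene's strand. Any GGAAG or its reverse complement CTTCC is in capitals. This is a form of the binding motif of the ETS family that endothelial genes share, and other forms of that motif were not counted.
Kdr (chr5:75978456-75978705, minus strand): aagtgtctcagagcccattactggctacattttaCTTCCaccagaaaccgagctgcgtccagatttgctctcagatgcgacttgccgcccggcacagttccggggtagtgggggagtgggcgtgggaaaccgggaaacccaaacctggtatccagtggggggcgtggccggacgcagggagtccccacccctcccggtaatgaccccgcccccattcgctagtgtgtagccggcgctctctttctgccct
Flt1 (chr5:147726012-147726261, minus strand): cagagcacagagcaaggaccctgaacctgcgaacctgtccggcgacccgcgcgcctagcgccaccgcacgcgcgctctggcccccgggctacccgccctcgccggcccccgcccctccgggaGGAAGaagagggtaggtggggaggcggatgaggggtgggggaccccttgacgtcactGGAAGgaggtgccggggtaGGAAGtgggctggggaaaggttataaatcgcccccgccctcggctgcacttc
Tek (chr4:94739039-94739288, plus strand): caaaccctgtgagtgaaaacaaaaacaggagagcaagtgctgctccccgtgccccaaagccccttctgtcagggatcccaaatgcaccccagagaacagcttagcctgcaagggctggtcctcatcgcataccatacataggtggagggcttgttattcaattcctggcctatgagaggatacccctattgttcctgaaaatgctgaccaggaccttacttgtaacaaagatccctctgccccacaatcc
Vegfa (chr17:46032378-46032627, minus strand): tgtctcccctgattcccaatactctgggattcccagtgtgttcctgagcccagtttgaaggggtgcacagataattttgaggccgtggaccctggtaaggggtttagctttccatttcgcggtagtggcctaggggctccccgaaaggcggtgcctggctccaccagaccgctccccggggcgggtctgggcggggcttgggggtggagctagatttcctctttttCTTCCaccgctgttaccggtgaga
This GGAAG form was found 3 times upstream of Flt1, 1 time each upstream of Kdr and Vegfa and not upstream of Tek. It stood in 64.1% of 32807 promoters of the same length, counting both strands. ACGTG, the core of the hypoxia response element, counted with its reverse complement CACGT, was in none of these 4 sequences and in 16.6% of all promoters. It stood 1 time upstream of the second Vegfa entry of RefSeq, which starts inside the gene. GTAAACA, a motif of FOX factors, with its reverse complement TGTTTAC, was in none of the 7 entries and in 3.16% of all promoters. A match of letters is no evidence of binding.

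The first question was which of these genes differed between mutants and controls of one sex. In males, 3 of 10 members passed an adjusted P under 0.01 (quasi-likelihood F-test of edgeR, litter in the model, Benjamini-Hochberg adjusted over 14010 genes): Pecam1 and Plvap rose and Vegfa fell. Of all genes tested in males, 5.25% rose and 3.2% fell. In females no member passed (3 had an unadjusted P under 0.05, namely Kdr, Flt1 and Tek, as did 20.6% of all genes, and DESeq2 called 1, Kdr), in a comparison in which edgeR called 0.457% of genes higher and 0.18% lower. DESeq2 called 4.45% higher and 1.97% lower there. Without FM4, edgeR called 866 genes in females in place of 92 (4.68% higher and 1.25% lower), and still no member. With all 20 mice in 1 model of genotype, sex and litter, Vegfa alone passed, where 10% of genes rose and 5.86% fell. In males, 3 members were higher in every mutant than in every control and 1 was lower, against 8.75% and 6.56% of all genes. In females, 1 member (Kdr) was lower without overlap, against 3.33% of all genes.

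Vegfa, the principal ligand of endothelial survival and permeability, lies on chromosome 17 (46016993 to 46032369, minus strand, GRCm38, GENCODE M21 as for all genes below). In male controls its levels were 273 CPM in MC1, 306 in MC2, 284 in MC3, 286 in MC4 and 255 in MC5. In male mutants they were 113 in MM1, 214 in MM2, 178 in MM3, 197 in MM4 and 176 in MM5. All 5 male mutants therefore lay below all 5 male controls, and the group mean of mutants was 62.5% of that of controls. Its log2 fold change was −0.71 ± 0.14 (SE) with an adjusted P of 0.00591 (edgeR). In females the controls held 278, 299, 243, 294 and 255 CPM (FC1 to FC5) and the mutants 194, 180, 112, 248 and 297 (FM1 to FM5). FM4 and FM5, the female mutants with the smallest kidneys, overlapped the controls, and FM1 to FM3 lay below all of them. The female log2 fold change was −0.42 ± 0.20 with an adjusted P of 0.251, and without FM4 it was −0.55 with an adjusted P of 0.0927 (edgeR). Over all mice it was −0.56 ± 0.14 with an adjusted P of 0.00505, and −0.64 with an adjusted P of 0.00130 without FM4. The call of Vegfa in males was close to its threshold. Leaving out 1 mouse at a time kept the log2 fold change between −0.87 and −0.53, with an adjusted P from 0.000386 (without MM1) to 0.0300 (without MC4), and above 0.01 without MC1, MC2, MC3, MC4, MC5, MM3, MM4 or MM5. A fit of all 20 mice at once gave −0.68 with an adjusted P of 0.0235. Within litters the difference in mean log2 CPM between male mutants and male controls was −0.88 in A, −0.61 in B and −0.54 in C. Between female mutants and controls it was −0.52, −0.70 and 0.22. Here and below, litters A, B and C held 2, 2 and 1 male mutants and 3, 1 and 1 male controls. They held 1, 3 and 1 female mutants and as many female controls, so several of these differences compare single mice. For all mice, leaving out 1 mouse raised the adjusted P above 0.01 without FC2, FC4, MC4 or MM5, to 0.0150 at the highest (without MC4).

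Markers of podocytes and of the thick ascending limb, cells that make Vegfa, were followed beside it. The 8 podocyte genes summed to 278 to 433 CPM in male controls and 258 to 373 in male mutants, and to 533 to 683 against 403 to 506 in females. Over all mice 5 of the 8 fell and none rose, where 5.86% of all genes fell and 10% rose. The median log2 fold change was −0.43, and that of all genes −0.01. In males 2 of 8 fell, where 3.2% of all genes did, and none passed in females (1 without FM4). Podxl, a podocyte surface sialomucin, changed by −0.56 and Wt1, a podocyte transcription factor, by −0.49, and both fell. The 4 genes of the thick ascending limb summed to 5939 to 6392 CPM in male controls and 4262 to 4837 in male mutants, and to 8145 to 8984 against 4489 to 6334 in females, and 3 of 4 fell over all mice with a median of −0.56, 2 in males and none in females (1 without FM4). Of 6 proximal tubule genes none passed in either sex or over all mice, with a median of −0.14 over all mice (1 fell without FM4). Of the thick ascending limb genes, Kcnj1, the apical potassium channel of that segment, changed by −0.69 over all mice. Slc12a1, the sodium-potassium-chloride cotransporter of the same segment, changed by −0.73. In bulk tissue fewer cells of a type and less RNA per cell cannot be told apart, and the part of these cells in the level of Vegfa was not tested.

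Hypoxia-inducible genes, of which Vegfa is 1 by common knowledge, were followed as a list of their own. Of 14 hypoxia-inducible genes tested over all mice, P4ha1, a prolyl hydroxylase of collagen, rose (log2 fold change 0.34, adjusted P = 0.000984, edgeR) and Pdk1, a kinase that limits pyruvate entry into mitochondria, fell (−0.48, adjusted P = 4.58e-05). The other 12 did not pass, and the median of the list was 0.02. Of all genes, 10% rose and 5.86% fell in this comparison.

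Vegfc, the ligand of lymphatic growth (chromosome 8, 54077606 to 54187096, plus strand), was the least abundant ligand, at 4.13 ± 0.973 CPM in male controls, 4.36 ± 0.725 in male mutants, 4.65 ± 0.982 in female controls and 5.47 ± 0.692 in female mutants. The groups overlapped in every pair. The male log2 fold change was −0.01 ± 0.18 (adjusted P = 0.987) and the female one 0.27 ± 0.22 (adjusted P = 0.551, edgeR).

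Of the receptors, Kdr, the main signalling receptor for VEGF on blood endothelium (chromosome 5, 75932827 to 75978458, minus strand), was at 93.4, 94.7, 89.5, 84.7 and 73.2 CPM in FC1 to FC5 and at 44.5, 56.2, 70.0, 62.3 and 66.1 in FM1 to FM5. The 5 female mutants thus lay below the 5 female controls, with a mean at 68.7% of that of controls. The log2 fold change was −0.52 ± 0.13 with an adjusted P of 0.0398 in edgeR, which missed 0.01, and 0.00403 in DESeq2, and a fit of all 20 mice at once gave 0.00848. Over all mice Kdr was at −0.34 ± 0.11 (adjusted P = 0.0260, edgeR), and it passed without MM2, MC5 or MM5, with 0.00638 at the lowest. In males the controls held 52.4 to 72.9 CPM and the mutants 43.0 to 65.6, ranges that overlapped, and the log2 fold change was −0.13 ± 0.13 (adjusted P = 0.531). Without FM4 the female value was −0.52 with an adjusted P of 0.0347, and in litters A, B and C the female difference was −1.07, −0.52 and −0.15 on the log2 scale.

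Flt1 is a high-affinity VEGF receptor that also acts as a decoy (chromosome 5, 147561604 to 147726011, minus strand). Tek is the angiopoietin receptor (chromosome 4, 94739289 to 94874976, plus strand). Both had negative log2 fold changes in females, as Kdr did, but of smaller size, and overlapped between genotypes. Flt1 was at 54.2 ± 7.01 CPM in female controls and 42.4 ± 6.40 in female mutants (log2 fold change −0.33 ± 0.14, adjusted P = 0.191), and at 41.0 ± 4.56 and 39.3 ± 6.22 in males (−0.06 ± 0.11, adjusted P = 0.739). Tek was at 62.4 ± 11 against 47.3 ± 6.23 CPM in females (−0.37 ± 0.14, adjusted P = 0.170) and at 42.2 ± 5.24 against 38.6 ± 6.61 in males (−0.15 ± 0.11, adjusted P = 0.390, edgeR). Neither passed in either sex. In litter C, with 1 mutant and 1 control, the female difference was 0.12 for Flt1 and 0.24 for Tek. In litter A, again 1 against 1, it was −0.97 for Flt1 and −0.96 for Tek. In litter B, with 3 against 3, it was −0.31 and −0.41.

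Flt4, the receptor for Vegfc on lymphatic and some fenestrated endothelium (chromosome 11, 49609263 to 49652739, plus strand), went the other way. Male controls held 9.15, 10.4, 8.41, 9.41 and 9.52 CPM (MC1 to MC5) and male mutants 15.5, 12.2, 12.8, 18.6 and 12.8 (MM1 to MM5). Every male mutant was above every male control, with a mean 53.1% higher. The log2 fold change of 0.58 ± 0.14 had an adjusted P of 0.0134 in edgeR and 0.00222 in DESeq2, which called 8.84% of genes higher, so its call in males depended on the tool. It passed 0.01 also without the litter term (0.00593), without the filter on low counts (0.00839) and when MM2 was left out (0.00839). In females the controls held 9.95 to 16.7 CPM and the mutants 10.3 to 20.7, and the log2 fold change was 0.18 ± 0.17 (adjusted P = 0.627). Over all mice Flt4 was at 0.36 ± 0.12 (adjusted P = 0.0306, edgeR), and it passed without FC1 or FM1. Of 4 lymphatic genes tested, Pdpn, a mucin-type glycoprotein of lymphatic endothelium that podocytes and other cells also make, rose over all mice (1.67, adjusted P = 4.44e-05), while Reln did not pass (−0.48, adjusted P = 0.0645), and the median of the list was 0.06. Of all genes, 10% rose over all mice. Lyve1, a defining lymphatic marker, reached at most 25 counts in a library. Ccl21a had none, which cannot be read as absence because how reads were counted is not given.

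Neither angiopoietin passed the test between genotypes in either sex. Angpt1 (chromosome 15, 42424723 to 42676977, minus strand) was at 24.7 ± 3.61 CPM in male controls, 23.7 ± 4.17 in male mutants, 30.1 ± 5.82 in female controls and 30.4 ± 8.44 in female mutants, with a male log2 fold change of −0.09 ± 0.14 (adjusted P = 0.677) and a female one of 0.03 ± 0.15 (adjusted P = 0.957). The highest level, 44.8 CPM, was in FM4, and without it the female value was −0.11 (adjusted P = 0.655). Angpt2 (chromosome 8, 18690263 to 18741562, minus strand) was at 21.4 ± 3.73 CPM in male controls, 21.6 ± 6.65 in male mutants, 34.1 ± 6.47 in female controls and 30.2 ± 4.86 in female mutants, with a male value of −0.07 ± 0.20 (adjusted P = 0.843) and a female one of −0.16 ± 0.15 (adjusted P = 0.617, edgeR).

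The ratio of Angpt2 to Angpt1 in the same library needs no library size and is often read as a sign of vessel destabilization. On the log2 scale it averaged −0.21 ± 0.43 in male controls and −0.17 ± 0.60 in male mutants, and 0.18 ± 0.46 in female controls and 0.02 ± 0.51 in female mutants. Male mutants ran from −1.03 in MM2 to 0.49 in MM1, a spread wider than any difference between group means. The mutant-minus-control difference was 0.04 in males (exact permutation P = 0.889) and −0.16 in females (exact permutation P = 0.627), and males minus females gave −0.39 in controls (exact permutation P = 0.198) and −0.19 in mutants (exact permutation P = 0.587; two-sided, over all splits of 5 against 5, which allow no P below 0.00794). Adjusted over the 4 comparisons these were 0.794 to 0.889. The permutation test took no account of litter. Split by litter, mutants minus controls gave 0.01, 0.65 and −0.82 in males (A, B and C), so the sign was not shared. Nor was it shared in females, at 0.21, −0.28 and −0.19, or for males minus females in mutants, at −0.80, 0.38 and −0.92. Males minus females in controls kept 1 sign, at −0.60, −0.55 and −0.28. Each of these control values rests on a single mouse in males, females or both.

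The surface genes rose in males. Pecam1, an adhesion molecule of endothelial junctions that platelets and leukocytes also carry (chromosome 11, 106654217 to 106750628, minus strand), was at 61.8, 59.6, 48.6, 62.2 and 55.2 CPM in MC1 to MC5 and at 92.4, 75.6, 80.4, 104 and 78.4 in MM1 to MM5. Plvap, the diaphragm protein of fenestrated endothelium (chromosome 8, 71497765 to 71511752, minus strand), was at 93.6, 98.0, 104, 105 and 89.6 CPM in MC1 to MC5 and at 139, 115, 134, 143 and 118 in MM1 to MM5. For both genes the lowest male mutant was above the highest male control. The log2 fold change was 0.55 ± 0.10 for Pecam1 (adjusted P = 0.00391) and 0.38 ± 0.07 for Plvap (adjusted P = 0.00376, edgeR), or 49.9% and 32.6% higher means. In litters A, B and C the male difference was 0.57, 0.55 and 0.51 for Pecam1 and 0.36, 0.40 and 0.40 for Plvap. Without MC4, which alone represents the male controls of litter B, the adjusted P rose to 0.0248 and 0.0257. It was also above 0.01 without MC5 or MM5 for both genes, and without MC1 or MC2 for Plvap, which had an adjusted P of 0.0113 when all 20 mice were fitted at once.

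In females neither surface gene passed. Pecam1 was at 89.1, 77.4, 103, 89.1 and 76.0 CPM in FC1 to FC5 and at 80.7, 105, 115, 78.2 and 85.9 in FM1 to FM5, and Plvap at 151, 123, 158, 161 and 171 against 148, 171, 159, 126 and 155. The groups overlapped for both. Pecam1 had a log2 fold change of 0.12 ± 0.13 (adjusted P = 0.687) and Plvap of 0.02 ± 0.12 (adjusted P = 0.959). Over all mice Pecam1 was at 0.32 ± 0.10 (adjusted P = 0.0201) and 0.37 without FM4 (adjusted P = 0.00373, a call, edgeR). Without FM4, edgeR called 21% of all genes over all mice (12.5% higher) in place of 15.9%. Pecam1 also passed without FC1 or FM1.

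Leukocyte markers were followed beside Pecam1. The 8 markers summed to 106 to 136 CPM in male controls and 184 to 488 in male mutants, and to 128 to 159 against 145 to 676 in females, and 6 of 8 rose over all mice, with a median log2 fold change of 1.15. Of all genes, 10% rose over all mice. In males 4 of 8 markers rose, where 5.25% of all genes did. In females none passed with FM4 and 6 of 8 without it, where 4.68% of all genes rose. Lyz2, the macrophage lysozyme, changed by 2.49 and Itgam, an integrin of myeloid cells, by 2.36. Of the blood genes, Pf4, a platelet chemokine, changed by 1.85 and rose, and Alas2, the erythroid heme enzyme, changed by −2.16 and fell. Globins had no count in any library, although Alas2 averaged 18.7 CPM in male and 13.5 in female controls. How reads were counted is not given, so the missing globin counts cannot be read as absence of blood. The part of these cells in the level of Pecam1 was not tested.

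**Figure D2:**
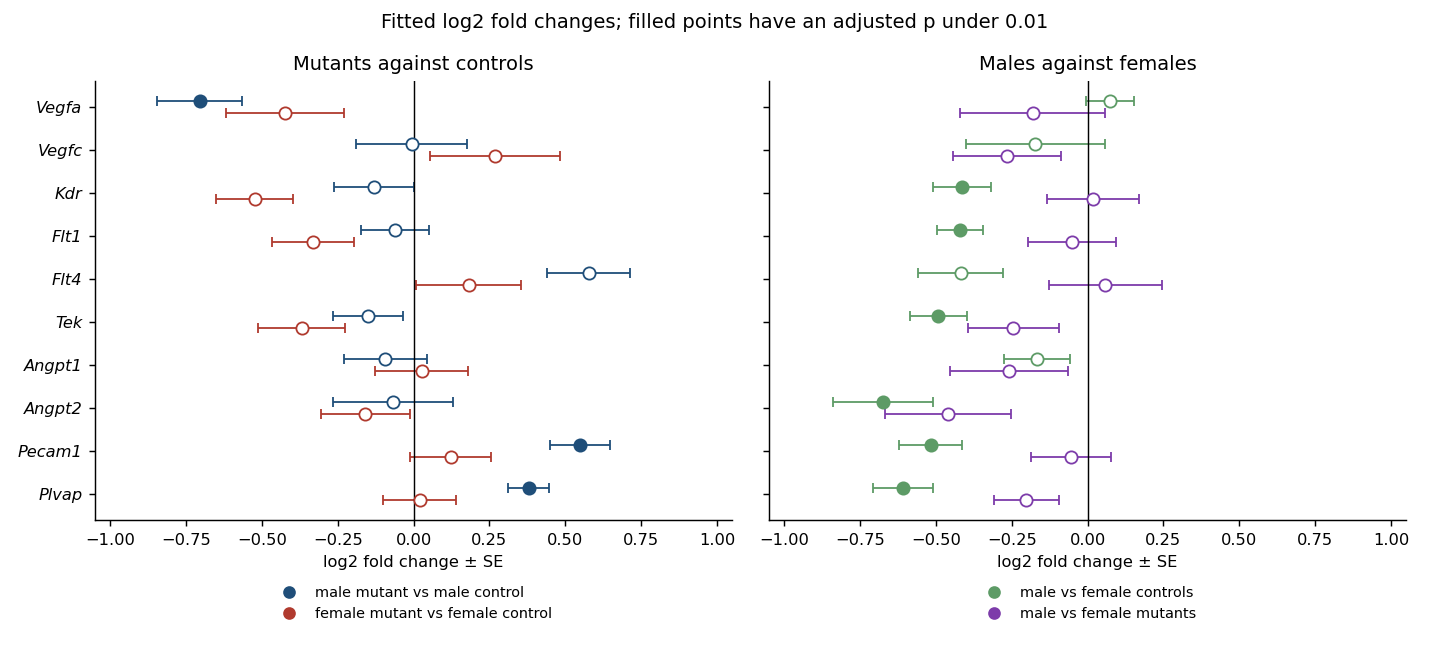
Fitted log2 fold changes with their standard errors for each gene, mutants against controls of one sex on the left and males against females of one genotype on the right. Filled points passed an adjusted P under 0.01 (edgeR). In controls every member but Vegfa was on the side of lower levels in males, and 6 passed, while in mutants none passed.

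The comparison of the sexes among controls asked whether the levels differed before genotype is considered. Here 6 of 10 members were lower in males and none higher, in a comparison in which 9.02% of all genes were lower and 8.75% higher in males. The 6 were Kdr, Flt1, Tek, Angpt2, Pecam1 and Plvap, and the median log2 difference of the 10 members was −0.42, against −0.01 over all genes. Kdr, Pecam1 and Plvap were lower in every male control than in every female control, as were 14.1% of all genes.

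Among the receptors, Kdr averaged 61.5 ± 8.69 CPM in male and 87.1 ± 8.67 in female controls (log2 difference −0.41 ± 0.09, adjusted P = 0.00594). Flt1 differed by −0.42 ± 0.08 (adjusted P = 0.00134) and Tek by −0.49 ± 0.09 (adjusted P = 0.00199), while Flt4, at −0.42 ± 0.14, did not pass (adjusted P = 0.0404). Angpt2 stood at 21.4 ± 3.73 against 34.1 ± 6.47 CPM (−0.67 ± 0.17, adjusted P = 0.00915), and Angpt1 was at −0.17 ± 0.11 (adjusted P = 0.278). Plvap showed the smallest adjusted P, at 97.9 ± 6.49 CPM in males and 153 ± 18.4 in females (−0.61 ± 0.10, adjusted P = 0.000663), and Pecam1 was at −0.52 ± 0.10 (adjusted P = 0.00257, edgeR). Vegfa, at 281 ± 18.7 CPM in males and 274 ± 24.4 in females, was at 0.07 ± 0.08 (adjusted P = 0.516, edgeR). Its within-litter differences were 0.05, 0.04 and 0.00. Litters A, B and C held 3, 1 and 1 male controls and 1, 3 and 1 female controls.

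The calls depended on FC1, the only female control of litter A, without which 1544 of 14263 genes were called in place of 2510 of 14123. Without it Plvap alone passed, with an adjusted P of 0.00599, and the values were 0.0866 for Kdr, 0.0240 for Flt1, 0.0370 for Tek, 0.110 for Angpt2 and 0.0326 for Pecam1. The directions held without it, with log2 differences from −0.29 for Kdr to −0.62 for Plvap. Kdr also lost its call without MC2, MC4, MC5, FC2 or FC5, Angpt2 without MC1, MC2, MC4, FC3 or FC4, and Pecam1 without MC4. A fit of all 20 mice at once, which called 1712 of 14123 genes, kept 3 calls (Tek, Pecam1 and Plvap). Without the litter term Flt1 lost its call (adjusted P = 0.0138, edgeR). In each of the 3 litters the male mean lay below the female mean for all 6 genes, from −0.30 for Kdr in B to −0.96 for Angpt2 in A.

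Other genes of these vessels followed the same direction in controls. Of 22 pan-endothelial markers, 10 were lower in males and none higher, with a median of −0.44, and of 10 other genes of the VEGF and angiopoietin pathways 6 were lower and none higher, with a median of −0.38. Tie1, the partner receptor of Tek, differed by −0.39 (adjusted P = 0.00317) and the coreceptors Nrp1 and Nrp2 by −0.29 (adjusted P = 0.00551) and −0.52 (adjusted P = 0.00652). Markers of other cells also differed: 7 of 8 podocyte genes (median −0.63) and 4 of 4 thick ascending limb genes (median −0.49) were lower in males, and among 6 proximal tubule genes 2 were higher and none lower. The summed podocyte level was 278 to 433 CPM in male and 533 to 683 in female controls. The part of this makeup in the levels of the 10 genes was not tested.

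Among mutants no member differed between the sexes at an adjusted P under 0.01 (edgeR; none at an unadjusted P under 0.05 and none by DESeq2), in a comparison in which 1.84% of genes were lower and 3.59% higher in males (2.72% and 6.4% without FM4, with still no member called). Pecam1 was at −0.06 ± 0.13, Kdr at 0.02 ± 0.15, Flt1 at −0.05 ± 0.15, Flt4 at 0.06 ± 0.19, Tek at −0.25 ± 0.15 and Plvap at −0.20 ± 0.11. Angpt2 was furthest from 0, at −0.46 ± 0.21 (adjusted P = 0.164). The levels that stood out were those of male controls for Pecam1, Plvap and Flt4, which were below the other 3 groups in their means, and those of female controls for Kdr, Flt1 and Tek, which were above them.

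Whether the effect of genotype differed by sex was tested with an interaction term over all 20 mice. No gene of 14820 passed an adjusted P under 0.01 in edgeR (0% of genes, 618 at an unadjusted P under 0.05; 3 genes passed without FM4, none of them a member), and DESeq2 called 18 genes and no member. The smallest unadjusted P among members were 0.0103 for Plvap (0.39 ± 0.14 on the log2 scale, male minus female effect; adjusted P = 0.994), 0.0136 for Pecam1 (0.46 ± 0.17) and 0.0438 for Kdr (0.43 ± 0.20), the latter 2 with an adjusted P of 1. A difference between the sexes in the effect of genotype was therefore not shown for any member, although 3 passed in males and none in females. The male controls enter both the male comparison of genotypes and the comparison of control sexes, so these are not independent readings.

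The second question was whether the levels followed kidney size among the 10 mutants. Vegfa, Angpt1 and Tek fell with KBW at an unadjusted permutation P under 0.05, in 3 of 10 members, where 15.1% of 14416 genes did so in either direction. No gene passed after adjustment. For Vegfa, Pearson r of log2 CPM with KBW was −0.75 (permutation P = 0.0130, adjusted P = 0.203) and Spearman rho −0.78 (permutation P = 0.0107, adjusted P = 0.268). Angpt1 had an r of −0.83 (permutation P = 0.00357, adjusted P = 0.131) and a rho of −0.73 (permutation P = 0.0200, adjusted P = 0.308), and Tek an r of −0.73 (permutation P = 0.0177, adjusted P = 0.222) and a rho of −0.72 (permutation P = 0.0234, adjusted P = 0.317). Each P rests on 100000 resamples, and adjustment covered all genes tested.

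Sex and single mice bore on these relations. Male mutants had the larger kidneys, and with values centred within sex r was −0.83 for Vegfa (permutation P = 0.00376), −0.77 for Angpt1 (permutation P = 0.00979) and −0.54 for Tek (permutation P = 0.142). Leaving out the 2 mutants farthest from the median KBW, FM4 and MM1, gave −0.54 for Vegfa, −0.49 for Angpt1 and −0.73 for Tek. The size of r for the first 2 thus depended on these mice, but leaving them out also narrows the range of KBW, which can itself lower r. In the 5 male and the 5 female mutants, r was −0.93 and −0.83 for Vegfa. It was −0.93 and −0.68 for Angpt1 and −0.64 and −0.40 for Tek. Without MM1 alone, the mutant with the largest kidney (KBW 2.15) and a Vegfa level of 113 CPM, r was −0.61 for Vegfa (permutation P = 0.0767). The other 7 members had r between −0.51 for Kdr and 0.15 for Pecam1, and none passed an unadjusted P under 0.05. With values centred within sex, r among these ran from −0.60 for Kdr to 0.59 for Plvap, with 0.46 for Pecam1. The lowest permutation P there was 0.0927 (Plvap). In a model with sex as a term, the slope of Vegfa was −1.26 ± 0.27 on the log2 scale per percentage point of KBW (unadjusted P = 0.000465, adjusted P = 0.0390 in edgeR) and that of Angpt1 −0.86 ± 0.25 (unadjusted P = 0.00519, adjusted P = 0.0840). No gene passed an adjusted P under 0.01 in edgeR (0% of genes), and 2 members had an unadjusted P under 0.05, as did 22.3% of all genes. DESeq2 called Vegfa with 0.000666, among 577 of 13857 genes (4.16%).

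**Figure D3:**
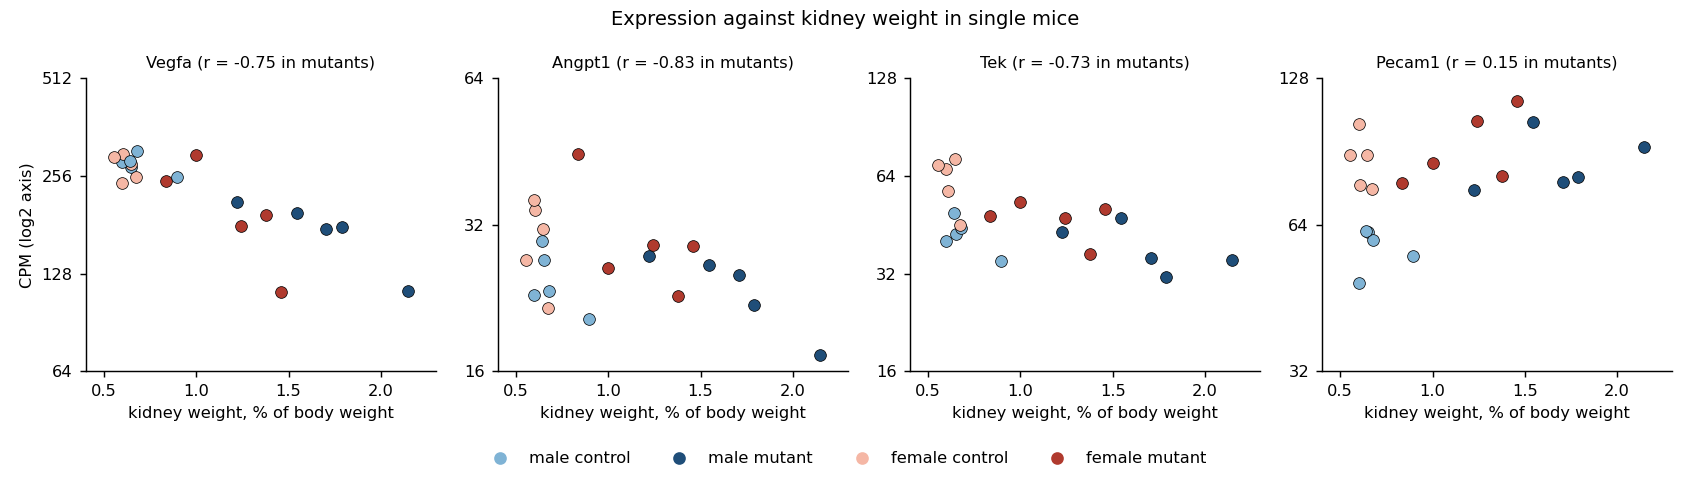
CPM (log2 axis) of 4 of the genes against kidney weight as a percent of body weight, for all 20 mice. Points are single mice coloured by group, and r is that of the 10 mutants. Vegfa was near control levels in FM4 and FM5, the mutants with the smallest kidneys, and lowest in FM3 and MM1. Pecam1 had an r of 0.15, and of 0.46 with values centred within sex (permutation P = 0.194).

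The members did not vary as 1 block. With the 4 group means removed, the residual log2 CPM of the 45 pairs over 20 mice had a median Pearson r of 0.20. It is given as a description since all genes share the same libraries. Differences between litters were left in these residuals, and their part was not tested. The closest pair was Flt1 and Tek, at 0.89 with and without FM4, followed by Kdr and Angpt1 at 0.73, Kdr and Tek at 0.72, Flt4 and Pecam1 at 0.70 and Vegfc and Plvap at 0.68. Without FM4, Flt4 and Pecam1 reached 0.88 and Kdr and Angpt1 0.83. Pairs with opposite deviations were Vegfa and Pecam1 at −0.51, Angpt1 and Plvap at −0.48 (−0.28 without FM4) and Kdr and Angpt2 at −0.41. The highest value of Vegfa with another member was 0.35, with Angpt1.

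**Figure D4:**
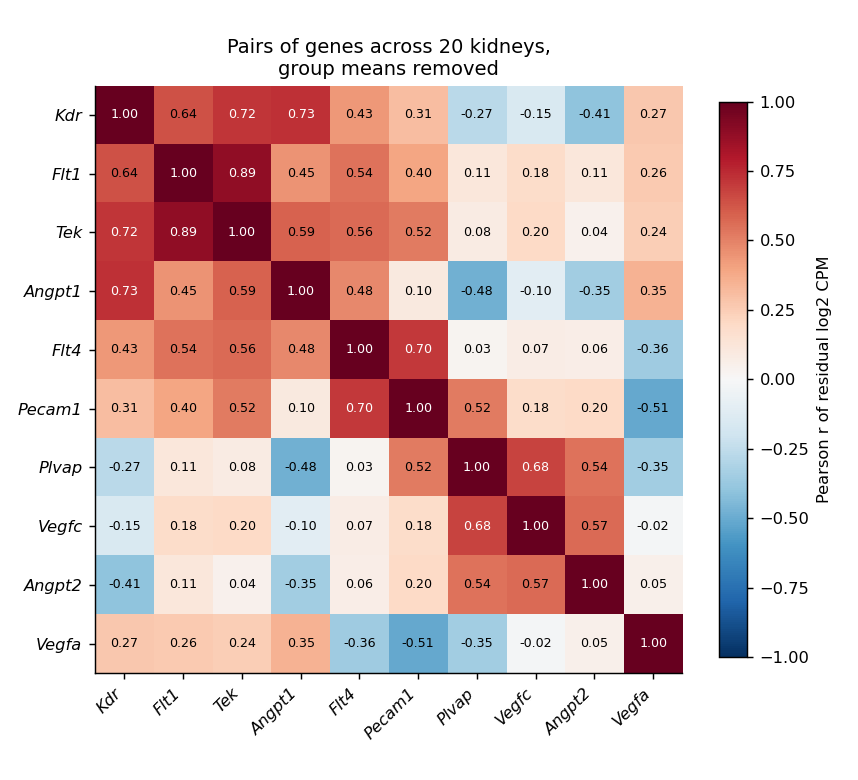
Pearson r between the residual log2 CPM of each pair of genes across 20 kidneys after removal of the 4 group means, with the diagonal at 1. Kdr, Flt1 and Tek were at 0.64 to 0.89 with each other (0.63 to 0.89 without FM4), Kdr and Angpt1 at 0.73 (0.83 without FM4), and Vegfa at −0.51 with Pecam1.

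Against the panel of 22 pan-endothelial markers, the median residual r was 0.51 for Plvap, 0.48 for Pecam1, 0.32 for Vegfc, 0.29 for Angpt2, 0.25 for Tek, 0.23 for Flt1, 0.16 for Flt4, 0.05 for Kdr, −0.08 for Angpt1 and −0.21 for Vegfa. Without FM4 it was 0.49 for Plvap, 0.41 for Pecam1, 0.34 for Flt1 and for Flt4, 0.06 for Kdr and 0.02 for Angpt1. Plvap and Pecam1 thus followed the panel most closely with and without FM4, and Kdr, although a receptor of endothelial cells, hardly did. Among 13780 genes, the closest to Vegfa were Tmem25 (r = 0.98) and Snhg11 (r = 0.95), the closest to Flt4 were Ppfibp1 (0.95) and Polr1a (0.92), and the closest to Pecam1 was Nrp2 (0.92), followed by Cped1 (0.90). Tek was closest to Flt1 and then to Daam2 (0.88), Flt1 to Tek and then to Zfp882 (0.81), and Kdr to A1cf (0.88) and Akap10 (0.87). For Angpt1 these were Ncoa2 (0.89) and Rmnd5a (0.88), for Angpt2 Sim2 (0.85, or 0.87 without FM4) and Pdia4 (0.79), for Plvap Wdr54 (0.83) and Scel (0.82), and for Vegfc Styk1 (0.77) and Aqp4 (0.72). Some of these ranks depended on FM4. Without it Polr1a ranked 12 for Flt4, Zfp882 10 for Flt1, Ncoa2 9 for Angpt1 and Wdr54, at a mean of 1.79 CPM, 8 for Plvap. A1cf and Akap10 ranked 4 and 6 for Kdr, while the closest gene stayed first for Vegfa, Vegfc, Flt1, Flt4 and Angpt2. These are the top pairs of many, and say nothing of shared control.

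The remaining endothelial lists place the 10 genes among mutants and controls. Of 10 other pathway genes tested over all mice (Tie1 is also 1 of the pan-endothelial panel), none passed, with a median log2 fold change of 0.17. Vegfb, a ligand of Flt1, was nearest to the threshold at 0.30 (adjusted P = 0.0109), Nrp1 was at 0.20 (adjusted P = 0.0355), Nrp2 at 0.36 (adjusted P = 0.0443) and Tie1 at −0.09 (adjusted P = 0.315). Without FM4, Nrp1 and Nrp2 passed, in a fit that called 12.5% of all genes higher in place of 10%. Of the 22 pan-endothelial markers 2 rose and 1 fell, close to the shares over all genes (10% rose and 5.86% fell), with a median of 0.10. Cd34, a sialomucin of capillary endothelium and progenitors, changed by 0.60 and Ecscr, an endothelial surface protein, by 0.69. Sox17, a transcription factor of arterial endothelium, changed by −0.46. In males 3 rose and 1 fell, with a median of 0.19, where 5.25% of all genes rose and 3.2% fell. In females none passed, with a median of 0.03. Without FM4, Cd34 passed in females and 3 rose over all mice, with Eng, a coreceptor of TGF-beta ligands named after its values were seen, added. The summed level of the panel was 467 to 527 CPM in male controls, 515 to 703 in male mutants, 651 to 749 in female controls and 645 to 790 in female mutants.

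Markers of vessel type went in different directions over all mice, a comparison in which 10% of all genes rose and 5.86% fell. Among 7 tip cell and sprouting genes, Apln, the ligand of the apelin receptor, changed by 0.64 (adjusted P = 0.00136) and Aplnr, the receptor, by 0.99 (adjusted P = 4.44e-05), and both rose, while Esm1 was at 0.05. The median was 0.36. Apln averaged 12.3 CPM in male controls, 25.1 in male mutants, 29.2 in female controls and 36.0 in female mutants, and Aplnr 9.07, 18.5, 9.24 and 18.1. Both passed in males, and none of the list passed in females (Aplnr did without FM4). Of 5 venous and activated endothelial genes, the adhesion molecules Vcam1 (2.54, adjusted P = 8.85e-06) and Icam1 (0.89, adjusted P = 7.43e-05), which other cells also express, rose, and Ephb4 was at −0.12. Of 6 arterial genes, the chemokine gene Cxcl12 fell (−0.39, adjusted P = 0.00585) and Gja5 was at −0.29. None of 4 glomerular endothelial genes passed, with a median of −0.30 and Ehd3, an endocytic protein of glomerular capillaries, at −0.30 (adjusted P = 0.0159).

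Of 11 mural cell genes, 4 rose and 2 fell over all mice, where 10% of all genes rose and 5.86% fell. Acta2, the smooth muscle actin that myofibroblasts also make, changed by 1.25 (adjusted P = 0.000347) and Tagln, an actin-binding protein of the same cells, by 1.24 (adjusted P = 0.000347), while Myh11, a myosin of mature smooth muscle, changed by −0.67 (adjusted P = 0.00477). The summed level of the mural genes was 215 to 259 CPM in male controls, 238 to 474 in male mutants, 275 to 330 in female controls and 273 to 611 in female mutants.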

How the data were processed

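RNA-seq of total RNA from whole kidneys of 20 mice was analysed, 5 in each of 4 groups of sex and genotype. According to the submitters' processing notes and the study's methods, the authors trimmed reads with fastp 0.23.2, aligned them to mm10 with STAR 2.7.10b and worked in R 4.3.0 with DESeq2. The deposited values are raw counts per gene. The counting tool, its annotation and its strand setting are not given in the sources used here, so reads of overlapping or antisense genes may be included. The 10 genes, the gene lists and the tests were chosen with earlier results of these data known.

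Counts were fitted with edgeR 4.0.16 (TMM scaling, filterByExpr, quasi-likelihood F-test) in R 4.3.3, with litter as a covariate, and P-values were Benjamini-Hochberg adjusted over all genes tested with a threshold of 0.01. The fits of all mice and of the sex-by-genotype term used sex and litter together as groups, and that of kidney weight used sex. The SE given with an edgeR value is its absolute log2 fold change divided by the square root of its F statistic. DESeq2 1.42.0 was an alternative. Other alternatives were leaving out each mouse, a single fit of all 20 mice, dropping the litter term or the filter, a floor of 10 counts per mouse, and DESeq2 size factors. CPM is TMM-scaled, expressed per 1000000 counts, and log2 CPM used a prior count of 2. KBW was computed from the labels' weights, whose units the labels do not write and which were read as grams of body and milligrams of kidney. Correlations used 100000 resamples. Depth was 11307741 to 19324073 counts per library. The scripts were tested on simulated counts with known fold changes. From each list the text names the 2 genes with the smallest adjusted P and those with the largest and smallest log2 fold change over all mice, or fewer where space was short. Lyve1, Ccl21a and the globins were named after their values were seen. Coordinates are GENCODE M21 (GRCm38), and promoters are RefSeq's.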

Additional observations from a re-analysis of the deposited data

How the results depend on the processing

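Of the 10 genes, 3 passed between male mutants and controls, none between female mutants and controls, 1 over all mice and 6 between the sexes in controls. Of all genes tested, 8.46%, 0.637%, 15.9% and 17.8% passed in these comparisons. A single fit of all 20 mice changed these member counts to 1 in males (Pecam1), 1 in females (Kdr) and 3 between control sexes. That fit called 858 of 14010 genes in males, 823 of 14439 in females and 1712 of 14123 between control sexes. DESeq2 called 1 member in females, 2 over all mice and 1 for the slope on KBW, where it called 6.43%, 21% and 4.16% of all genes. With each mouse left out in turn, the number of members was 0 to 4 in males, 0 to 3 over all mice and 1 to 6 between control sexes. Calls over all genes moved as well. In males they were 187 of 14161 without MC4 and 1863 of 14133 without MM2. Over all mice they were 1656 of 14288 without MC4 and 1921 of 14281 without FC1. Between control sexes they were 1544 of 14263 without FC1 and 2659 of 14285 without MC3. The count of 0 in males came without MC4, MC5 or MM5, that over all mice without FC2, FC4 or MC4, and that of 1 between control sexes without FC1. MC4 was the only male control of litter B, FC1 the only female control of litter A, and MC5 and MM5 the only males of litter C. With litter as a covariate, leaving such a mouse out takes its litter out of the male or control-sex contrast. The part of this in the loss of calls was not tested.

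Signs turned only for values that had not passed the test. Without the litter term the log2 fold change in males was 0.073 for Vegfc and 0.0058 for Angpt2, and in a joint fit of the 20 mice 0.054 and 0.014. For Plvap in females it was −0.0040 without the filter on low counts and −0.0046 with all mice in 1 fit. Between the sexes in mutants Kdr was at −0.044 without litter and −0.018 with all mice in 1 fit, and Flt4 at −0.055 without litter. Without the sex term the slope on KBW was −0.30 for Vegfc, −0.36 for Angpt2 and −0.056 for Plvap, and with values centred within sex r was 0.049, 0.25 and 0.59. When 1 mouse was left out, the following ranges crossed 0. Between male mutants and male controls, the fitted log2 fold change ran from −0.10 to 0.10 for Vegfc, −0.14 to 0.0030 for Flt1, −0.22 to 0.033 for Angpt1 and −0.25 to 0.088 for Angpt2. Between female mutants and female controls, the fitted log2 fold change ran from −0.11 to 0.14 for Angpt1 and −0.058 to 0.078 for Plvap. Over all mice, the fitted log2 fold change ran from −0.11 to 0.021 for Angpt1. Between the sexes in controls, the fitted log2 fold change ran from −0.42 to 0.038 for Vegfc. Between the sexes in mutants, the fitted log2 fold change ran from −0.095 to 0.13 for Kdr, −0.20 to 0.077 for Flt1, −0.10 to 0.21 for Flt4 and −0.14 to 0.032 for Pecam1. For the sex-by-genotype term, the fitted log2 fold change ran from −0.25 to 0.051 for Angpt1 and −0.11 to 0.28 for Angpt2. The slope on KBW ran from −0.13 to 0.20 for Vegfc, −0.18 to 0.35 for Flt4 and −0.32 to 0.47 for Angpt2. Pearson r with KBW ran from −0.075 to 0.25 for Flt4, −0.0069 to 0.25 for Pecam1 and −0.31 to 0.019 for Plvap. The log2 ratio of Angpt2 to Angpt1 ran from −0.12 to 0.26 between male mutants and male controls, −0.35 to 0.0039 between female mutants and female controls and −0.35 to 0.029 between the sexes in mutants. The cause was not tested. No paired analysis was possible because the replicate numbers were given in accession order and pair no mice, and litter was already a covariate.

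Vegfc had the fewest counts of the members, 38 to 111 per library, and 5 mice per group leave SEs of 0.07 to 0.20 for the members in males.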
